A study of Mus musculus with 13 samples.

Results

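The 6 actin genes and 4 tropomyosin genes of the mouse were followed in C2C12 myoblasts. They were taken by symbol (Acta1, Actc1, Acta2, Actg2, Actb, Actg1, Tpm1, Tpm2, Tpm3 and Tpm4) from a table of 23236 gene rows. All 10 were present. Each had a mean of at least 1 FPKM, the filter on low values used here, which 11792 rows passed.

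C2C12 is a mouse line of muscle precursor cells. In growth medium the cells divide singly, and on serum withdrawal they fuse to myotubes. Of 13 samples in the series, 2 are used here, RNA-seq libraries of poly(A)-selected RNA labelled siLinc-Yy1 and siNC, with 1 library per condition. Both are labelled as myoblasts of the C2C12 line. By the usual reading of such names, they stand for an siRNA against the long noncoding RNA Linc-Yy1 and for a control siRNA, and the comparison asks how the transcriptome differs when Linc-Yy1 is targeted. The labels give no dose and no time after transfection for either library. The growth medium had 10% serum. The remaining RNA-seq libraries, GM and DM, and the ChIP-seq libraries were not analysed here.

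Actin is the protein of thin filaments. In mammals, striated muscle uses the skeletal and cardiac alpha-actins (Acta1, Actc1), and smooth muscle uses an aortic alpha-actin and an enteric gamma-actin (Acta2, Actg2). All cells use the cytoplasmic beta- and gamma-actins (Actb, Actg1). Tropomyosins are coiled-coil dimers that lie along the filament and set which proteins reach it, and in striated muscle they hold the troponin complex. Each tropomyosin gene gives several proteins by alternative promoters and splicing, some muscular and some cytoskeletal. A level per gene adds these together. As myoblasts differentiate, muscle actins and muscle tropomyosin forms increase and the cytoplasmic actins decline.

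Promoters of several actin genes carry the CArG box, the sequence bound by serum response factor (Srf), whose cofactors Mkl1 and Mkl2 are held in the cytoplasm by free actin. The RefSeq promoter table (build GRCm38.p6) held 8 of the 10 members, in 9 windows, and the 250 bases before each start were searched on both strands. It held no window for Actb or Actg2, so those promoters were not searched. A CArG box was found for 3 genes, Acta1 and Actc1 of the sarcomeric class and Actg1 of the cytoplasmic class. These promoters are shown because they place a shared Srf motif beside genes at both ends of the range of levels. The box is in capitals, each sequence reads 5′ to 3′ on the minus strand, and the last base lies just before the start.
Actg1 promoter, chr11:120348496-120348745: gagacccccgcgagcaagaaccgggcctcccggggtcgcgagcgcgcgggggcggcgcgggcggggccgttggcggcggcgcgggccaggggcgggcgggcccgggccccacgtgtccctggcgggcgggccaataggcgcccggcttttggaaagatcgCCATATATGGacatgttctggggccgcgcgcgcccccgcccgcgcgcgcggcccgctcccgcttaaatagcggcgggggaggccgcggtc
Acta1 promoter, chr8:123894776-123895025: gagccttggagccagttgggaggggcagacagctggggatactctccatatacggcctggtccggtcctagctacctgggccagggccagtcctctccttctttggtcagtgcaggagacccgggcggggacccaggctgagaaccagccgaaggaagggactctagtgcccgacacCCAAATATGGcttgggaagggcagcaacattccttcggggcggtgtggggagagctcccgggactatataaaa
Actc1 promoter, chr2:114052876-114053125: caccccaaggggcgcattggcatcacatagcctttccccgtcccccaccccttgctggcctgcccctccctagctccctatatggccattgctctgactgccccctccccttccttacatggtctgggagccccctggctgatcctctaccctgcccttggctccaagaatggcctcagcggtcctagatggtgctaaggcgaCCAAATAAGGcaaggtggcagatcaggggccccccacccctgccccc
In Actg1 the box lay from base -90 to base -81, in Acta1 from -73 to -64 and in Actc1 from -47 to -38, counted from the start. Of 32851 windows of the same length, 1.47% held a CArG box. The windows of Acta2, Tpm1, Tpm2, Tpm3 (both windows) and Tpm4 held none, which says only that these letters are not in those bases. The GC box GGGCGG, common in promoters of genes used by all cells, matched 6 times in Actg1, 5 times in Tpm4, 2 times each in Acta1 and Tpm2, 1 time each in Tpm1 and the second Tpm3 window, and not in Actc1, Acta2 or the first Tpm3 window, with 32.7% of windows holding at least 1. Some of the Actg1 matches overlap. The E-box CANNTG, the kind of site bound by myogenic factors, was found in the windows of Actg1, Acta1, Acta2, Tpm1, Tpm2 and Tpm3 and in 66.2% of all windows. The motif CATTCC, also searched, was found in the windows of Acta1, Acta2 and Tpm1 and in 12.6% of all windows. A match is a description of the sequence, not a binding site.

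Levels are in FPKM, the fragments of a gene per kilobase of its transcript, scaled by the mapped fragments in all, so they can be set side by side between genes. Steps of low FPKM values in short single-exon receptor genes placed the depth near 47.3 M fragments for siLinc-Yy1 and 66.1 M for siNC, provided that the authors scaled the FPKM by mapped fragments alone. Only a fixed range of depths was tried. The RNA that the siLinc-Yy1 label names, lincYy1, measured 0.227 FPKM in siLinc-Yy1 and 0.360 FPKM in siNC, with a q-value of 0.878 in the authors' deposited table. So low a level gives no check of the label. Of 8 myoblast markers 7 passed the filter, among them Myod1 at 67.0 FPKM in siLinc-Yy1 and 62.5 FPKM in siNC, Myf5 at 21.9 FPKM in siLinc-Yy1 and 18.8 FPKM in siNC, and Cdh15 at 99.0 FPKM in siLinc-Yy1 and 98.4 FPKM in siNC. Des, the muscle intermediate filament desmin, measured 487 FPKM in siLinc-Yy1 and 322 FPKM in siNC. Myog, the differentiation factor myogenin, measured 19.4 FPKM in siLinc-Yy1 and 22.8 FPKM in siNC. Of markers of other cells, 6 of 8 for fibroblasts, the collagens Col1a1, Col1a2 and Col3a1 among them, 4 of 6 for adipocytes and 1 of 8 for further lineages (Tubb3) passed the filter. In bulk RNA, fewer cells of a type and less RNA per cell cannot be told apart. Over all rows past the filter the log2 difference had a median of -0.021. By band of level the median was -0.068 at 1 to 2 FPKM and -0.11 at 2 to 5 FPKM, and from there it grew with level through the bands in which all 10 members lie.

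The cytoplasmic actins were the most abundant members in both libraries and showed the largest differences. Actg1, cytoplasmic gamma-actin (chromosome 11, 120207004 to 120209798, mm9), measured 1385 FPKM in siLinc-Yy1 and 676 FPKM in siNC. Actb, cytoplasmic beta-actin (chromosome 5, 143664795 to 143668403), measured 1325 FPKM in siLinc-Yy1 and 682 FPKM in siNC. Both were about as abundant as each other within a library, with an Actg1 to Actb ratio of 1.05 in siLinc-Yy1 and 0.991 in siNC. Actg1 ranked 16th of all rows in siLinc-Yy1 and 20th in siNC, and Actb 20th in siLinc-Yy1 and 18th in siNC. On the log2(FPKM + 1) scale the difference of siLinc-Yy1 minus siNC was 1.03 for Actg1 and 0.96 for Actb.

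The aortic smooth muscle alpha-actin Acta2, which cultured fibroblasts and myoblasts also make, was the third most abundant actin. It lies on chromosome 19 from 34315581 to 34329826 and measured 388 FPKM in siLinc-Yy1 and 270 FPKM in siNC, a log2 difference of 0.52. Actg2, the enteric smooth muscle gamma-actin (chromosome 6, 83462903 to 83486245), measured 59.8 FPKM in siLinc-Yy1 and 62.1 FPKM in siNC. Its log2 difference was -0.053. The Acta2 to Actg2 ratio was thus 6.48 in siLinc-Yy1 and 4.34 in siNC. A ratio within a library does not depend on 1 scaling factor between the libraries, but it can move with level. The median log2 difference was 0.46 in the band of Acta2 and 0.15 in that of Actg2, and the part of level in this ratio was not tested. Smooth muscle markers were uneven: Myh11, the smooth muscle myosin heavy chain, stood at 0.339 FPKM in siLinc-Yy1 and 0.495 FPKM in siNC. Myocd, the Srf cofactor of smooth and cardiac muscle, stood at 0.138 FPKM in siLinc-Yy1 and 0.0902 FPKM in siNC. Of the 10 markers in that list, 3 were below 1 FPKM in both libraries. The other 7, Des among them, passed the filter, 3 with a higher and 4 with a lower value in siLinc-Yy1. Smtn measured 65.0 FPKM in siLinc-Yy1 and 57.7 FPKM in siNC. Tagln, an actin-binding protein, measured 37.3 FPKM in siLinc-Yy1 and 37.8 FPKM in siNC. Cnn1 measured 3.32 FPKM in siLinc-Yy1 and 4.69 FPKM in siNC, a log2 difference of -0.40. Lower values in siLinc-Yy1 were also those of Mylk (1.64 against 2.03 FPKM in siNC) and Lmod1 (1.55 against 1.78 FPKM). Synpo2 was higher, at 5.38 FPKM in siLinc-Yy1 and 4.96 FPKM in siNC.

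The sarcomeric actins were the least abundant class. Acta1, skeletal alpha-actin (chromosome 8, 126415667 to 126418636), measured 91.3 FPKM in siLinc-Yy1 and 78.0 FPKM in siNC, a log2 difference of 0.22. Actc1, the cardiac alpha-actin that embryonic skeletal muscle also makes (chromosome 2, 113873025 to 113878547), measured 10.5 FPKM in siLinc-Yy1 and 11.9 FPKM in siNC, a log2 difference of -0.17. Actc1 was the lowest of the 10 members in both libraries. The Acta1 to Actc1 ratio was 8.68 in siLinc-Yy1 and 6.55 in siNC. Band medians differed here too, at 0.15 for Acta1 and -0.058 for Actc1, and the part of level in this ratio was not tested. Cardiac markers were scarce, with 7 of 10 below 1 FPKM in both libraries. The highest of them was Gata4, a cardiac and endodermal transcription factor, at 11.7 FPKM in siLinc-Yy1 and 12.4 FPKM in siNC.

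**Figure D1:**
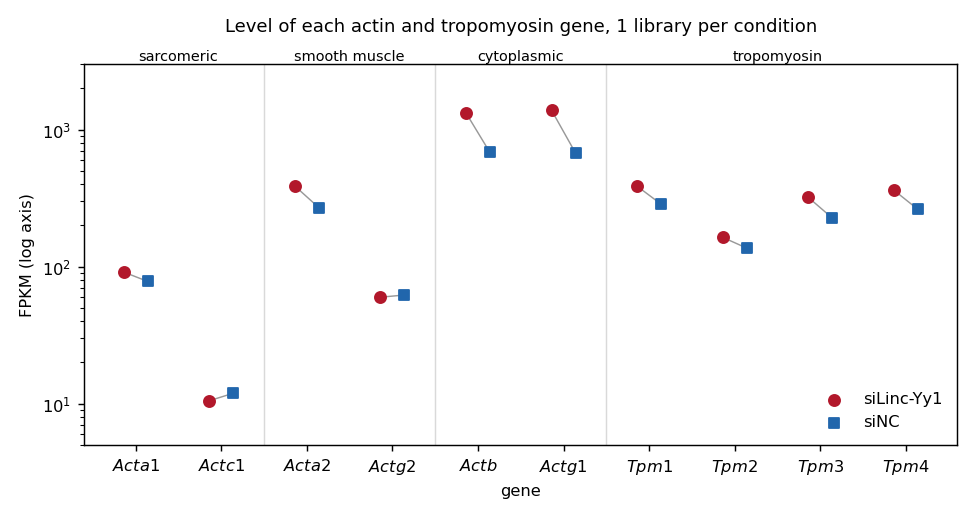
FPKM (log axis) of each member in the siLinc-Yy1 library (circles) and the siNC library (squares), grouped by class, with a line joining the values of a gene and no error bars because each condition has 1 library. Actb and Actg1 sit highest in both libraries and Actc1 lowest, and the siLinc-Yy1 value is above the siNC value for all members except Actc1 and Actg2 at the authors' scaling, while at equal summed FPKM Acta1 and Tpm2 turn as well.

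The 4 tropomyosin genes lay closer together than the actins. Tpm1, alpha-tropomyosin (chromosome 9, 66870400 to 66897020), was the most abundant, at 387 FPKM in siLinc-Yy1 and 286 FPKM in siNC. Tpm4, the source of a cytoskeletal tropomyosin in rodents (chromosome 8, 74659191 to 74677028), measured 362 FPKM in siLinc-Yy1 and 262 FPKM in siNC. Tpm3, the gene of slow muscle and of short cytoskeletal forms (chromosome 3, 89876573 to 89904824), measured 321 FPKM in siLinc-Yy1 and 227 FPKM in siNC. The order Tpm1, Tpm4, Tpm3, Tpm2 was the same in both libraries.

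Tpm2, beta-tropomyosin (chromosome 4, 43527584 to 43536260), was the least abundant of them, at 164 FPKM in siLinc-Yy1 and 137 FPKM in siNC. The log2 differences were 0.50 for Tpm3, 0.46 for Tpm4, 0.43 for Tpm1 and 0.26 for Tpm2. With no replicates, neighbours in this order cannot be told apart. Tpm1 made up 31.4% of summed tropomyosin FPKM in each library. Tpm2 made up 13.3% in siLinc-Yy1 and 15.0% in siNC, the largest shift among the tropomyosins.

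At the authors' scaling, 8 of the 10 members had a higher value in siLinc-Yy1, against 45.4% of all rows past the filter. Equal summed FPKM shifts the median of all rows past the filter by -0.28, to -0.30. It left 6 members higher, against 8.64% of all rows, and turned Acta1 (-0.095) and Tpm2 (-0.062) below 0. These shares cover rows of all levels, and shares by band were not computed at equal summed FPKM. At the authors' scaling 32.0% of rows of 10 to 20 FPKM were higher, the band of Actc1, and from 89.4% to 100% in the bands of the other members. The size rule of 2-fold on the log2(FPKM + 1) scale was met upwards by 1 member, Actg1, where 1.39% of all rows met it. No member met it downwards, where 0.178% of all rows did. At 1.5-fold, Actb joined Actg1, for 2 members higher and 0 lower, against 3.28% of rows higher and 0.517% lower. The authors' deposited table called 0 of the 10, with a lowest q-value of 0.843 for Acta2, beside 1.22% of filtered rows called higher and 0.229% called lower in that table. For Actb and Actg1 the authors' deposited table gave q-values of 0.974 and 0.963. No p-value was computed here, since a single library per condition leaves no replicate error. All differences describe these libraries.

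To set the members beside rows of like level, rows were put in bands of mean FPKM over both libraries. Among the 37 rows of at least 800 FPKM the median log2 difference was 1.02, with an interquartile range of 0.94 to 1.27, and 56.8% of them were at least 2-fold higher in siLinc-Yy1. Actg1 and Actb belong to this band, and 16 of its rows had a larger difference than Actg1 and 25 a larger one than Actb. Of the rows nearest in level to Actg1, Rps12, a ribosomal protein, measured 1365 FPKM in siLinc-Yy1 and 682 FPKM in siNC (log2 difference 1.00). Vim, the intermediate filament protein vimentin, measured 1366 FPKM in siLinc-Yy1 and 749 FPKM in siNC (0.87). Rpl23a, another ribosomal protein, and Spp1, the secreted protein osteopontin, stood at 0.99 and 1.23 on the same scale. Rps12 and Spp1 are also the nearest rows above Actb, and the nearest below it, the ribosomal protein gene Rps2 and the cytokine gene Mif, stood at 0.72 and 0.79, under the 0.96 of Actb.

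The members of middle level were set beside their bands. For Tpm1, the only one of them with nearest rows taken, the band and those rows gave different pictures. Among the 175 rows of 200 to 400 FPKM the median was 0.46, with an interquartile range of 0.34 to 0.58, and 3.43% were at least 2-fold higher. Acta2 (0.52), Tpm3 (0.50), Tpm4 (0.46) and Tpm1 (0.43) all lay inside that interquartile range. The 4 rows nearest in level to Tpm1 all had larger differences than Tpm1, with Gnai2, a G protein subunit, at 0.63 and the ribosomal protein genes Rps7, Rpl23 and Rpl27a at 0.82, 0.82 and 0.85. Tpm2, at 0.26, lay inside the range of 0.19 to 0.38 of the 447 rows of 100 to 200 FPKM. Acta1, at 0.22, lay inside the range of 0.072 to 0.24 of the 1020 rows of 50 to 100 FPKM. The relation to level moves with every abundant member, and its part in these differences was not tested.

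The 2 members outside the interquartile range of their band were Actg2 and Actc1. Such a range leaves out the upper and the lower quartile of rows by construction, so a place outside it is not unusual in itself. Actg2 shares the band of 50 to 100 FPKM with Acta1, in which 89.4% of rows had a higher value in siLinc-Yy1, yet Actg2 itself did not. Of the 1020 rows in that band, 56 had a lower log2 difference than Actg2. Less the median of the band Actg2 stood at -0.21, and less a running median over rows ordered by level at -0.20. Actc1 stood at -0.11 less the median of its band of 10 to 20 FPKM, where 489 of 2519 rows had a lower value. Both members are below 0 under each of the scalings tried. As counts, Actg2 corresponds to 2831 fragments per kilobase of transcript in siLinc-Yy1 and 4106 in siNC. If its transcript were 1 kilobase long, the siLinc-Yy1 to siNC ratio of 0.963 would have a 95% interval of 0.918 to 1.01 (exact binomial), which covers counting error only. The depth behind it is a rough estimate, which sets the width of the interval and not its centre. For Actc1, at 497 fragments per kilobase in siLinc-Yy1 and 787 in siNC, the ratio was 0.883 with an interval of 0.787 to 0.989 on the same terms.

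**Figure D2:**
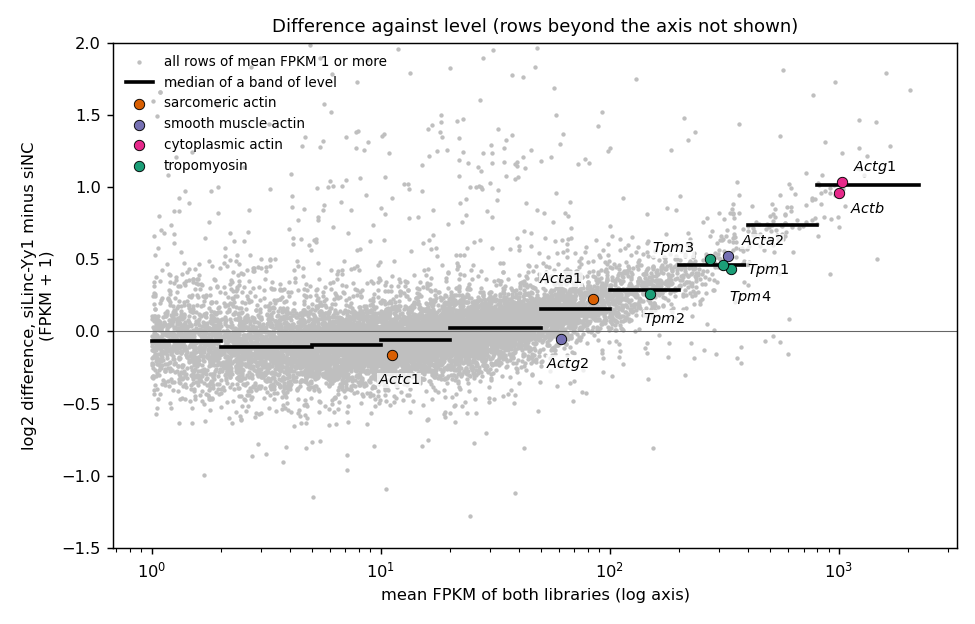
Log2 difference of siLinc-Yy1 minus siNC, with 1 FPKM added, against the mean FPKM of both libraries (log axis) for every row past the filter (grey), with the median of each band of level as a black bar and the members as coloured points; 45 rows lie beyond the vertical axis. The members climb with the bars, Actg1 and Actb near 1.02 and the tropomyosins other than Tpm2 near 0.46, while Actg2 and Actc1 sit below theirs.

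**Figure D3:**
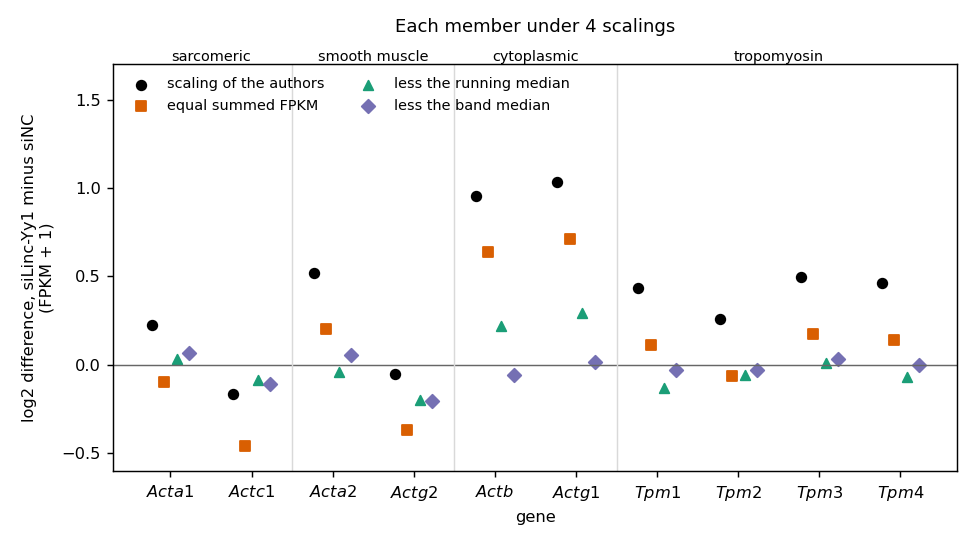
Log2 difference of siLinc-Yy1 minus siNC for each member at the authors' scaling, at equal summed FPKM, less the running median and less the median of its band of level. Actg1 is above 0 under all 4 and Actb under all but the band median (-0.059). Actg2 and Actc1 are below 0 under all 4, and less the band median every member lies between -0.21 and 0.069. For Actg1 and Actb the running median is 0.74, near the 0.74 median of rows of 400 to 800 FPKM. Their own band has a median of 1.02, so less the running median they are not set beside rows of like level.

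The make-up of the actin pool does not depend on the scaling between libraries. The cytoplasmic actins made up 83.1% of summed actin FPKM in siLinc-Yy1 and 76.3% in siNC. The smooth muscle class made up 13.7% in siLinc-Yy1 and 18.6% in siNC, and the sarcomeric class 3.12% in siLinc-Yy1 and 5.06% in siNC. Median differences grew with level from the band of 2 to 5 FPKM upwards, and the part of that relation in these shares was not tested. With Actb left out of the pool, the cytoplasmic share was 71.6% in siLinc-Yy1 and 61.6% in siNC.

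Within the 4 muscle actins Acta2 took 70.6% in siLinc-Yy1 and 63.9% in siNC. The actins together made up 0.713% of all FPKM in siLinc-Yy1 and 0.487% in siNC, and the tropomyosins 0.270% in siLinc-Yy1 and 0.249% in siNC. Summed tropomyosin over summed actin was 0.378 in siLinc-Yy1 and 0.512 in siNC. Against the muscle actins alone the same ratio was 2.25 in siLinc-Yy1 and 2.16 in siNC. The median log2 difference was 1.02 in the band of Actb and Actg1 and 0.46 in that of Acta2, Tpm1, Tpm3 and Tpm4. The part of level in these shares and ratios was not tested. The coding sequences of actin genes are near-identical in long stretches, so the authors' estimate may have divided reads among them, and levels of the less abundant isoforms are uncertain for that reason.

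**Figure D4:**
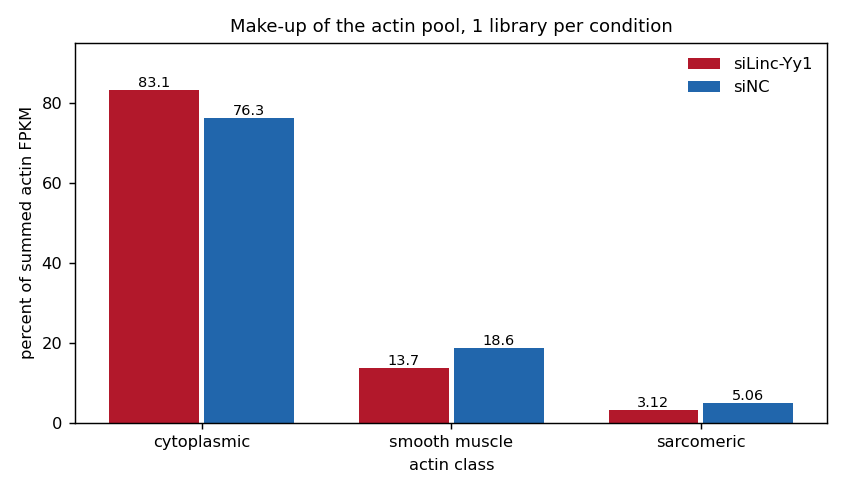
Percent of summed actin FPKM taken by the cytoplasmic (Actb, Actg1), smooth muscle (Acta2, Actg2) and sarcomeric (Acta1, Actc1) genes in the siLinc-Yy1 library (left bars) and the siNC library (right bars), with no error bars because each condition has 1 library. The cytoplasmic share is 83.1% in siLinc-Yy1 and 76.3% in siNC, and both other shares are smaller in siLinc-Yy1.

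Proteins that handle actin monomers had the highest median among the lists of actin partners at the authors' scaling. Of 13 listed genes 12 passed the filter, 11 with a higher and 1 with a lower value in siLinc-Yy1, and the median log2 difference was 0.31, or -0.011 at equal summed FPKM. Tmsb10, a thymosin that binds actin monomers, measured 1802 FPKM in siLinc-Yy1 and 652 FPKM in siNC, a ratio of 2.76. It was the only one of the actin partner rows that was 2-fold higher, and the only one called in the authors' deposited table. Less the median of its band it still stood at 0.45. Cfl1, the severing protein cofilin, measured 1001 FPKM in siLinc-Yy1 and 526 FPKM in siNC. Pfn1, profilin, which feeds monomers to growing filaments, measured 993 FPKM in siLinc-Yy1 and 528 FPKM in siNC. Tmsb4x, the other abundant thymosin, named after its value was seen, measured 518 FPKM in siLinc-Yy1 and 323 FPKM in siNC. Less the median of the band of 400 to 800 FPKM, which holds these 3, Cfl1 stood at 0.19, Pfn1 at 0.17 and Tmsb4x at -0.052.

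Genes that start new filaments were nearly level between the libraries. Of 22 genes of the Arp2/3 complex and the formins, 21 passed the filter, 8 with a higher and 13 with a lower value in siLinc-Yy1. Their median log2 difference was -0.013, or -0.30 at equal summed FPKM and -0.034 less the band median. Their median level was 30.3 FPKM, and at the authors' scaling 58.6% of all rows of 20 to 50 FPKM were higher. The most abundant subunits differed most, with Arpc2 at 184 FPKM in siLinc-Yy1 and 136 FPKM in siNC, Arpc1b at 302 FPKM in siLinc-Yy1 and 226 FPKM in siNC, and Arpc3 at 172 FPKM in siLinc-Yy1 and 137 FPKM in siNC. Genes that cap filament ends or set their length had 7 higher and 5 lower of 12 past the filter. Their median log2 difference was 0.067, or -0.22 at equal summed FPKM and 0.0035 less the band median. Their median level was 12.9 FPKM, and at the authors' scaling 32.0% of all rows of 10 to 20 FPKM were higher. Capg, a gelsolin-like capping protein, measured 231 FPKM in siLinc-Yy1 and 177 FPKM in siNC. Capzb, a subunit of the barbed-end capping protein, measured 186 FPKM in siLinc-Yy1 and 152 FPKM in siNC, and Eps8, a capping and bundling protein, 56.6 FPKM in siLinc-Yy1 and 45.8 FPKM in siNC.

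Bundling and filament-binding proteins had 17 higher and 3 lower of 20 past the filter. Their median level was 104 FPKM, and at the authors' scaling 89.4% of all rows of 50 to 100 FPKM and 96.9% of those of 100 to 200 FPKM were higher. The median levels of the monomer list (150.0 FPKM) and of the folding list (111 FPKM) lie in the second of these bands. The median log2 difference of the bundling and filament-binding list was 0.28 at the authors' scaling, -0.043 at equal summed FPKM and 0.0091 less the band median. Tagln2 (transgelin 2) measured 357 FPKM in siLinc-Yy1 and 241 FPKM in siNC. Flna, the crosslinker filamin A, measured 260 FPKM in siLinc-Yy1 and 197 FPKM in siNC, and Cald1, caldesmon, which binds actin and tropomyosin, 160.2 FPKM in siLinc-Yy1 and 121 FPKM in siNC.

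The chaperones that fold actin, the CCT ring and prefoldin, with actin-modifying enzymes, had 14 higher and 2 lower of 16 past the filter. Their median was 0.17 at the authors' scaling, -0.14 at equal summed FPKM and -0.094 less the band median. The CCT subunits Cct2 and Cct5 measured 264 and 268 FPKM in siLinc-Yy1, against 195 and 207 FPKM in siNC. Vbp1, a prefoldin subunit, measured 13.2 FPKM in siLinc-Yy1 and 16.8 FPKM in siNC.

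Srf itself measured 24.9 FPKM in siLinc-Yy1 and 24.0 FPKM in siNC. Its actin-sensing cofactor Mkl1 measured 38.2 FPKM in siLinc-Yy1 and 34.0 FPKM in siNC, and Mkl2 9.07 FPKM in siLinc-Yy1 and 8.98 FPKM in siNC. The list of Srf, its cofactors and targets had 17 higher and 5 lower of 22 past the filter. Its median level was 37.3 FPKM, and at the authors' scaling 58.6% of all rows of 20 to 50 FPKM were higher. The median log2 difference of the list was 0.099 at the authors' scaling, -0.17 at equal summed FPKM and 0.035 less the band median. Zyx, zyxin of focal adhesions and stress fibres, measured 369 FPKM in siLinc-Yy1 and 261 FPKM in siNC. The transcription factors Egr1 and Junb measured 98.2 and 127 FPKM in siLinc-Yy1, against 69.8 and 92.3 FPKM in siNC. The list shares Actr3, Tagln and Cnn1 with the other lists, and Actr3 has a failed test in the authors' table. None of the lists other than the monomer list had a member past 2-fold in either direction.

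The 8 troponin genes, whose proteins sit with tropomyosin on the striated thin filament, had log2 differences from -0.31 to 0.69. The fast-fibre subunits Tnnt3 (52.3 FPKM in siLinc-Yy1 and 31.9 FPKM in siNC), Tnni2 (36.7 FPKM in siLinc-Yy1 and 24.3 FPKM in siNC) and Tnnc2 (25.1 FPKM in siLinc-Yy1 and 17.8 FPKM in siNC) had higher values. The other 5 had lower values, and the median of the 8 was -0.12, beside 0.45 for the 10 actins and tropomyosins. Less the band median these were -0.16 and -0.013. Both groups were described without a test of the difference between them, and the troponins were chosen after their values were known.

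**Figure D5:**
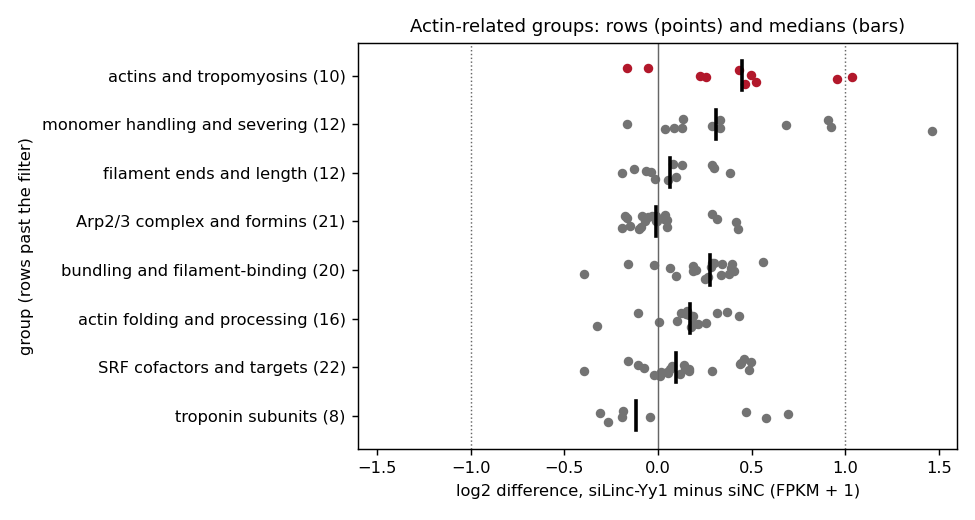
Log2 difference of siLinc-Yy1 minus siNC, with 1 FPKM added, for the 10 actins and tropomyosins (top row), the lists of actin partners and the troponins; points are rows past the filter, black bars medians and dotted lines a 2-fold difference. Medians run from -0.12 for the troponins to 0.45 for the actins and tropomyosins at the authors' scaling. At equal summed FPKM the medians of all the partner lists lie below 0, where the median of all rows past the filter is -0.30.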

How the data were processed

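RNA-seq of 1 siLinc-Yy1 and 1 siNC library was read from 1 gene-level table, deposited as 2 identical copies. Values are FPKM that the authors estimated, per the file headers; p-values and q-values are from the authors' deposited test on the same libraries. The first FPKM column was taken as siNC and the second as siLinc-Yy1, in the order of the header's condition names. Per the submitters' processing notes, the build was mm9, and the tools included Cuffdiff 2.0.4, Cufflinks 2.1.1 and TopHat2 2.0.4. No source used here states the annotation, the use of strand or the scaling between libraries. Gene starts are the deposited starts plus 1, as Cuffdiff writes them from 0.

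Differences are log2(FPKM + 1) in siLinc-Yy1 minus siNC, which understates changes of low genes, over rows with a mean of at least 1 FPKM (Python 3.11.15, pandas 2.3.3). The authors' log2 fold change differed from the ratio of the FPKM columns by at most 2.4e-05, rows with failed tests aside. A difference counts as 2-fold at 1 or -1. Depth came from receptor rows under 1500 bases: within 0.02 fragments, 49.8% of 508 rows in siLinc-Yy1 and 58.4% of 613 in siNC were whole multiples of a fragment, so no count test was run, and intervals from this depth are rough. The depths tried were limited to a fixed range, together with a length taken off each row, and the best joint fit was kept. Depths outside that range were not tested. The size rule and the subtraction of the running median were tried on simulated data with changes larger than 2-fold. That simulation did not score the highest levels apart and did not include the band median, so it does not check either there. The members, lists and tests were chosen with earlier results of these data known. Named were all members, list genes past 2-fold, the 3 of largest difference per list at a mean of at least 5 FPKM, Srf and its Mkl cofactors, the markers that check the label, and rows nearest in level. The alternatives were other pseudocounts, filters, folds and scalings, the authors' calls and rows with status OK alone. Subtraction of the band median was added after the data were seen.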

Additional observations from a re-analysis of the deposited data

How the results depend on the processing

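The count of 1 member at least 2-fold higher, Actg1, held with pseudocounts of 0.1 and 5 FPKM, with no filter, with a filter at 5 FPKM, with rows of status OK alone and when centred on the median. It became 0 at equal summed FPKM, less the running median, less the band median (chosen after seeing the data) and by the authors' calls, and 2 at 1.5-fold. The count of members at least 2-fold lower was 0 under each of these. The median log2 difference of the members was 0.45 as reported, 0.13 at equal summed FPKM, -0.048 less the running median and -0.013 less the band median; it lay between 0.44 and 0.47 under the other settings. Both subtractions remove a value that was larger for more abundant genes. Without Actb the cytoplasmic share of the actin pool was 71.6% in siLinc-Yy1 and 61.6% in siNC, the smooth muscle share 23.1% in siLinc-Yy1 and 30.2% in siNC, and the sarcomeric share 5.26% in siLinc-Yy1 and 8.19% in siNC. Confidence bounds of the FPKM were not used here, so that alternative was not run. No paired analysis was possible because each condition has 1 library. Counting error limits Actc1 and Actg2 most, and replicate error is unknown for every member.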
